A study of Mus musculus with 686 samples.

Results

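The liver libraries of mice whose spaceflight ended on orbit were 29 of the 686 small RNA libraries of the series, and they were found by the tissue, arm and extraction that their titles name. They came from female BALB/cAnNTac mice in 3 arms. Spaceflight mice (FL, 10 libraries) were killed on the International Space Station 22 to 24 days after launch. Habitat ground controls (HGC, 10 libraries) lived on Earth in the flight hardware, with food and air matched to those of flight, and vivarium ground controls (VGC, 9 libraries) lived in standard cages of 4. The controls were killed on the matching days. FL and HGC held 5 mice of 3 months and 5 of 8 months each, and VGC held 5 and 4. This extraction is called TERM, and that of mice flown back alive is called LAR. Per the study's methods, carcasses of all arms were frozen whole and the livers taken after a later thaw. Those frozen on the station floated free in air and froze more slowly than those on the ground, and mold was found on the food of FL and HGC. A supplementary table of the study instead marks this collection as snap frozen in all 3 arms. Flight and any difference in freezing cannot be told apart here. A library is named here by its arm and mouse number (FL 1). The same number in different arms stands for different mice.

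MicroRNAs are short RNAs that bind messages through the seed, bases 2 to 8 of the mature strand, and lower their translation and stability. Hepatocytes, the main cells of the liver, are known for a very large amount of miR-122 and also express miR-802, miR-192, miR-194 and miR-148a. Levels below are counts per 1000000 counts of the same RNA class in the same library (CPM), so that a fraction taken by one miRNA lowers all the others. In bulk tissue, fewer cells of a type and less RNA per cell cannot be told apart.

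The results turned on 5 groups of miRNAs. Their mature sequences are given 5′ to 3′ from RefSeq (GRCm38.p6), with the seed in capitals. The first pair is expressed in hepatocytes, the second marks heart, the third is high in thymus and the fourth is known from brain. The last 5 come from the imprinted Dlk1-Dio3 region, where they are expressed from the maternal chromosome. 
miR-802-3p: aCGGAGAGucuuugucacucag
miR-192-5p: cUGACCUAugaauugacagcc
miR-208a-3p: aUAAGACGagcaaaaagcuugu
miR-499-5p: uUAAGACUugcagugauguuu
miR-106a-5p: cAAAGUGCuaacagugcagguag
miR-20b-5p: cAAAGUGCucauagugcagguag
miR-9-5p: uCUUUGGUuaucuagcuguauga
miR-138-5p: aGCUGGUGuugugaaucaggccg
miR-379-5p: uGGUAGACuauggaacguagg
miR-411-5p: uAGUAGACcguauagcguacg
miR-127-3p: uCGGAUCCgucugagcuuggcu
miR-541-5p: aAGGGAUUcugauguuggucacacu
miR-154-5p: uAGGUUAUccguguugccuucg 
MiR-106a-5p (chrX:52742541-52742563, minus strand) and miR-20b-5p (chrX:52742159-52742181, minus strand) share their seed and lie in one cluster. The seeds of the heart pair, miR-208a-3p (chr14:54949072-54949093, minus strand) and miR-499-5p (chr2:155622893-155622913, plus strand), are alike except for their last base, as are those of miR-379-5p (chr12:109709065-109709085) and miR-411-5p (chr12:109710190-109710210) except for their first. The other 3 of the imprinted region, miR-127-3p (chr12:109592888-109592909), miR-541-5p (chr12:109742422-109742446) and miR-154-5p (chr12:109738438-109738459), have seeds of their own, and all 5 lie on the plus strand. MiR-802-3p lies at chr16:93369775-93369796 (plus strand) and miR-192-5p at chr19:6264857-6264877 (plus strand). MiR-9-5p has 3 copies in the genome and miR-138-5p has 2.

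In 27 of the 29 libraries the level of miR-122-5p was that of a liver, and 2 control libraries went against their label. MiR-122-5p took 26.4% to 50.2% of miRNA counts in the 10 FL libraries, 23.2% to 48.2% in 9 HGC libraries and 13.9% to 48.2% in 8 VGC libraries. It took 0.0265% in HGC 11 and 0.000859% in VGC 14. MiR-802-3p, chosen as the other liver marker, stood at 0.314 CPM in HGC 11 and 2.22 CPM in VGC 14, against 76.7 to 511 CPM in the other 27. It does not single out liver in this series, since its median was 3062 CPM in pancreas of TERM and 224 CPM in liver of TERM. Over 730 miRNAs that differ between the tissues of the series, the profile of HGC 11 had a Pearson's r of 0.95 with the heart median and -0.07 with that of liver. That of VGC 14 had 0.93 with thymus and -0.03 with liver. The other 27 libraries had their highest r with liver. Each comparison below is given with all 29 libraries and with the 27 in which miR-122-5p was at least 10% of miRNA counts.

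A pair of FL libraries kept a liver profile but also carried brain miRNAs. FL 1 had an r of 0.52 with liver and FL 16 of 0.79. Summed over 7 brain markers, the level was 16738 CPM in FL 1 and 4642 CPM in FL 16, and at most 418 CPM in the other 25 liver-like libraries. The most abundant of them, miR-124-3p, a neuronal miRNA, was at 12849.8 CPM in FL 1 and 3487 CPM in FL 16. MiR-9-5p was at 2789.6 and 717 CPM. Both were in FL, so results are also given for the 25 libraries without them (8 FL, 9 HGC, 8 VGC), a choice made after the data were seen. Counts over 7 RNA classes ranged from 27.8 to 111 M per library and miRNA counts from 1.44 to 6.69 M. A count of 0 then allows up to 0.449 to 2.08 CPM, counting error only. With all 29 libraries, miRNA counts were 4.67 M ± 1.09 (SD, n = 10) in FL and 3.62 M ± 1.38 (n = 10) in HGC (two-sided permutation test, 100000 resamples, p = 0.0753). FL libraries of the 27 had more miRNA counts, 4.67 M ± 1.09 (SD, n = 10), than those of HGC, 3.32 M ± 1.04 (n = 9, exact two-sided permutation test, p = 0.0134). VGC had 3.34 M ± 1.29 with all 29 libraries (n = 9) and 3.30 M ± 1.37 with 27 (n = 8). Against FL the exact two-sided permutation test gave p = 0.0269 and p = 0.0330.

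**Figure D1:**
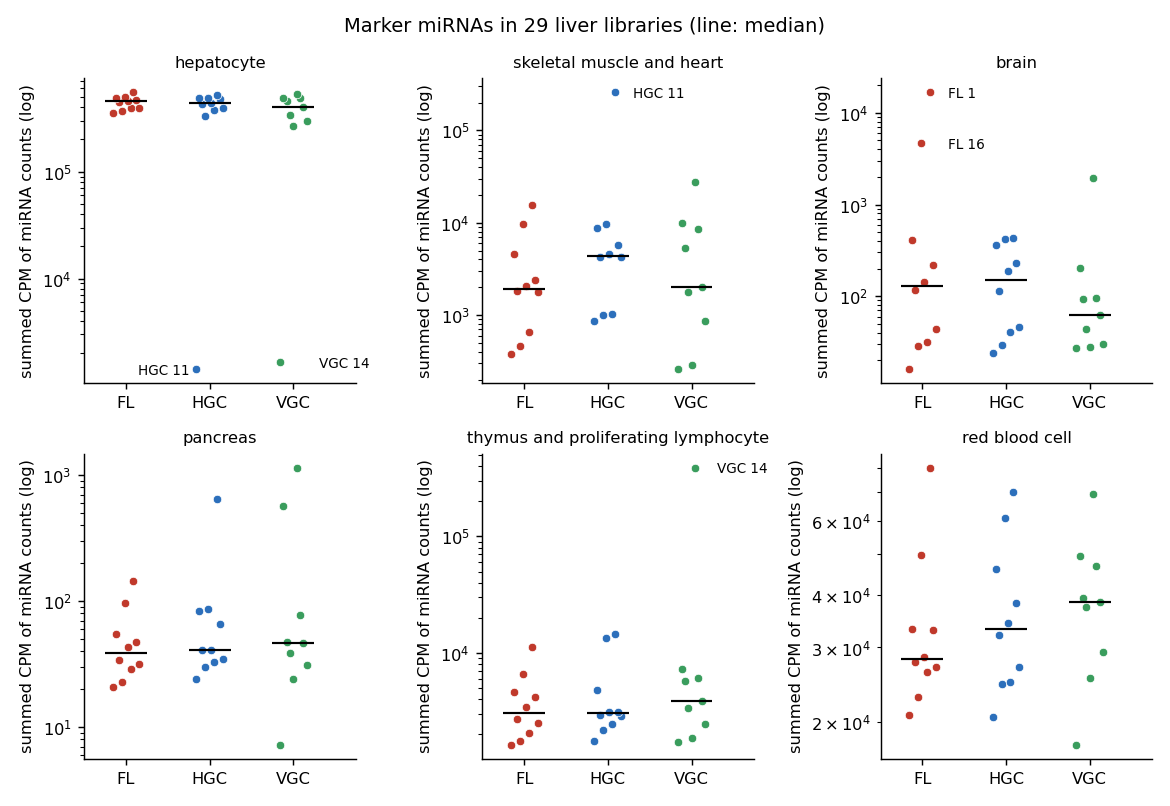
Summed CPM of 6 marker lists (log axis) in the 29 liver libraries by arm, 1 point per library, with the median as a line. HGC 11 and VGC 14 lie at 1415 and 1642 CPM of hepatocyte markers, HGC 11 leads in muscle and heart markers, VGC 14 in thymus markers, and FL 1 and FL 16 in brain markers.

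FL was first compared with HGC, which shares its hardware, to ask about flight apart from housing. With all 29 libraries, edgeR's quasi-likelihood test called 1 of 625 miRNAs (0.16%) at a Benjamini-Hochberg adjusted p under 0.05, and 48 had an unadjusted p under 0.05. That 1 miRNA was miR-208a-3p, which heart muscle makes from an intron of a myosin gene. Its lowest, median and highest levels were in FL 0, 0.262 and 0.945 CPM, in HGC 0, 1.03 and 788 CPM and in VGC 0, 1.06 and 9.15 CPM. The high end of HGC was HGC 11 at 788 CPM, and every other library of the 3 arms was under 10 CPM. The log2 fold change of FL against HGC was -7.52 ± 1.43 (SE, adjusted p = 0.00681), and -2.32 ± 0.68 without HGC 11 and VGC 14 (adjusted p = 0.346). The next 4 by p at 10 CPM or more were not called. They were miR-499-5p (-5.40 ± 1.29, adjusted p = 0.0705), also a heart miRNA, miR-149-5p (-2.91 ± 0.79), miR-9-3p (3.51 ± 0.99), the partner strand of miR-9-5p, and miR-486a-3p (-1.81 ± 0.55). With 27 libraries miR-9-3p was at 3.58 ± 1.04, while the other 3 were at -0.07 ± 0.62, 0.02 ± 0.29 and -0.29 ± 0.24. In the 27 liver-like libraries no miRNA of 587 was called, 40 had an unadjusted p under 0.05, and DESeq2 called 0. In the 25 without FL 1 and FL 16 no miRNA of 576 was called either, with 25 at an unadjusted p under 0.05 and 0 by DESeq2.

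FL against VGC asks about flight and housing together. With 29 libraries 45 of 625 miRNAs were called (7.2%), 11 higher (1.76%) and 34 lower (5.44%) in FL. The highest library was FL 1 for all 11 that were higher, and VGC 14 for 33 of the 34 that were lower. Among the lower ones were all 5 markers of thymus and proliferating lymphocytes. MiR-106a-5p had lowest, median and highest levels in FL 4.27, 8.11 and 54.0 CPM, in HGC 2.04, 8.34 and 67.4 CPM and in VGC 5.92, 11.1 and 3199.6 CPM, and VGC 14 held 3199.6 CPM. MiR-20b-5p, of the same seed, stood at 5392 CPM in VGC 14 and between 5.92 and 48.8 CPM in the other VGC libraries. MiR-181a-5p, which developing T cells express strongly, was at 335683 CPM there. The fold changes were -4.22 ± 0.98 for miR-106a-5p (adjusted p = 0.0204) and -4.31 ± 1.07 for miR-20b-5p (adjusted p = 0.0204). In the 27 libraries they were -0.02 ± 0.42 and 0.15 ± 0.51, neither called. Also lower were miR-130b-3p (-2.48 ± 0.58), miR-449a-5p (-3.05 ± 0.75) and 5 near-identical members of the miR-466 family, whose reads cannot be told apart (miR-466a-3p, -2.20 ± 0.54). With 27 libraries miR-130b-3p was at -0.37 ± 0.22, miR-449a-5p at -0.21 ± 0.38 and miR-466a-3p at -0.43 ± 0.23. The higher ones included the brain miRNAs miR-9-5p (4.42 ± 1.10, adjusted p = 0.0204) and miR-124-3p (5.75 ± 1.55, adjusted p = 0.0278). With 27 libraries miR-9-5p was at 4.597 ± 1.15 (adjusted p = 0.0801). In the 25 libraries without FL 1, FL 16, HGC 11 and VGC 14, the levels of miR-9-5p were 3.26 to 21.1 CPM in FL, which overlapped those of HGC (2.70 to 68.3 CPM) and VGC (2.28 to 26.6 CPM). Of the 45, 44 were tested in the 27 libraries and none of them was called. The median log2 fold change of the 11 higher ones was 2.84 with 29 libraries, 2.85 with 27 and 0.80 with 25, and that of the lower ones -2.20, -0.30 and -0.53, over those tested. With 27 libraries edgeR called 0 of 587, 51 had an unadjusted p under 0.05, and DESeq2 called 3, all higher in FL. In the 25 libraries both tools called 0, with 42 at an unadjusted p under 0.05 by edgeR. Between the ground arms, HGC against VGC, edgeR called 20 of 625 with 29 libraries (3.2%), 18 of them lower in HGC (2.88%), and 0 of 587 with 27 (10 at an unadjusted p under 0.05, 0 by DESeq2).

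The levels of the most abundant hepatocyte miRNAs overlapped between the arms. Of the 9 hepatocyte markers, leaving out miR-122-5p, by which the 27 libraries were kept, none was called in them. There 0 of all 587 miRNAs (0%) were called in either comparison. The median log2 fold change over the 9, miR-122-5p among them, was 0.02 against HGC (all 587 miRNAs, -0.00182) and 0.09 against VGC (all, 0.03). MiR-122-5p, which keeps up cholesterol and lipid synthesis, took 35.4% ± 7.80 (SD, n = 10) of miRNA counts in FL, 34.8% ± 7.88 (n = 9) in HGC and 31.6% ± 12.7 (n = 8) in VGC. Since the 27 libraries were kept by this share, it is given there with no test. With all 29 libraries it was 31.3% ± 13.3 (n = 10) in HGC and 28.1% ± 15.9 (n = 9) in VGC. Two-sided permutation tests of FL gave p = 0.441 (100000 resamples) and p = 0.216 (exact). The log2 fold change of that fit was 0.16 ± 0.74 against HGC, with a 95% interval of -1.29 to 1.60, and 0.26 ± 0.77 against VGC (-1.25 to 1.77). In the 27 libraries miR-192-5p, the next in abundance, had lowest, median and highest levels in FL 38099.9, 72806 and 94118 CPM, in HGC 29715, 73658 and 103299 CPM and in VGC 30818, 70084 and 103280.0 CPM. The arms overlapped, and the interval was -0.31 to 0.31 against HGC. For miR-148a-3p, a regulator of low-density lipoprotein uptake, the interval was -0.10 to 0.39 against HGC and -0.20 to 0.31 against VGC. MiR-802-3p was the one hepatocyte marker whose interval lay above 0 in both comparisons without passing the adjusted threshold. Its levels were in FL 96.9, 293 and 511 CPM, in HGC 101, 236 and 324 CPM and in VGC 76.7, 201 and 485 CPM. FL reached higher, and the arms overlapped. The log2 fold change was 0.43 ± 0.20 against HGC (adjusted p = 0.72) and 0.54 ± 0.21 against VGC (adjusted p = 0.334). In the 25 libraries it was 0.56 ± 0.22 and 0.66 ± 0.23. The other strand of the same hairpin, miR-802-5p, had 0.00427 ± 0.14 and 0.09 ± 0.15.

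The study itself selects miRNAs by effect size, a log2 ratio of medians beyond 1 with Cohen's d beyond 0.5, on values per mapped reads. It was applied here to CPM over all 7 classes in their place. That rule, which holds no test, took 4 miRNAs in FL vs HGC with 29 libraries, miR-1a-3p, miR-206-3p, miR-551b-3p and miR-802-3p, with log2 ratios of -1.38, -1.14, 1.04 and 1.24. With 27 libraries the first pair, both muscle miRNAs, dropped out. MiR-551b-3p (1.04) and miR-802-3p (1.23) stayed, and miR-22-5p, miR-338-3p and miR-345-5p came in. In FL vs VGC the rule took 9 with 29 libraries and 4 with 27, let-7e-5p, miR-124-3p, miR-1247-5p and miR-328-3p, with log2 ratios of 1.02, 2.90, 1.12 and 1.01. As applied here, the rule took miR-802-3p in neither set against VGC, and miR-802-5p in no comparison. The study, with its own values, instead lists both strands in liver as deregulated across all comparisons of LAR and TERM. The source of the difference was not tested. A rank-sum test on the 7-class CPM called 0 in both comparisons.

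**Figure D2:**
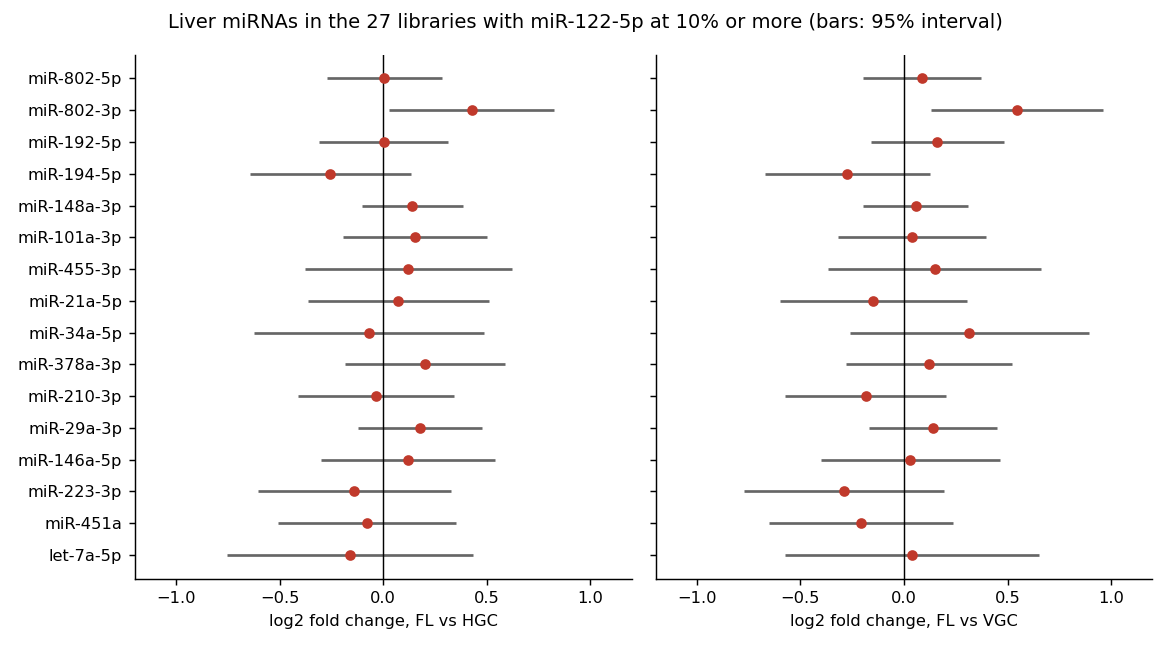
Log2 fold changes of FL against HGC (left) and VGC (right) for 16 miRNAs in the 27 libraries with miR-122-5p at 10% or more of miRNA counts, with the fitted value as a point and its 95% interval as a bar. The interval of miR-802-3p lies above 0 in both panels, and the other 15 cross 0.

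In the 27 libraries, no member of 8 groups of miRNAs chosen for metabolism, fibrosis, stress and growth was called in either comparison, as was the case for all 587 miRNAs (0%). Of the lipid and glucose group 9 of 10 members were tested, with a median log2 fold change of -0.04 against HGC and -0.15 against VGC. Its most abundant member, miR-378a-3p, which is made from an intron of the PGC-1beta gene, had intervals of -0.19 to 0.59 and -0.28 to 0.52. The 8 fibrosis miRNAs had medians of 0.12 and -0.04. Among them miR-29a-3p, which holds down collagens, had 0.18 ± 0.15 and 0.14 ± 0.16, and miR-21a-5p, which injured liver raises, had 0.07 ± 0.22 and -0.15 ± 0.23. MiR-34a-5p, a direct target of p53, ranged from 385 to 1475 CPM in FL, 288 to 1414 CPM in HGC and 246 to 1057 CPM in VGC. Its group of 8 had medians of -0.03 and 0.08. The hypoxia miRNA miR-210-3p, the 1 of 2 strands tested, had -0.03 ± 0.19 and -0.18 ± 0.20. The 5 inflammation miRNAs had medians of 0.07 and -0.15. For the 6 members of the miR-17-92 cluster, which proliferating cells express, the medians were 0.05 and -0.01. With VGC 14 in the comparison the second was -0.61. The 9 let-7 miRNAs, which are high in differentiated tissue, had medians of -0.07 and 0.10, and the 6 of the miR-15 family -0.01 and -0.03. Of the 10 most abundant miRNAs, miR-122-5p, miR-192-5p, let-7a-5p, miR-26a-5p, miR-451a, miR-22-3p, let-7c-5p, let-7f-5p, let-7g-5p and miR-378a-3p, none was called in either comparison with 29 libraries, and of those but miR-122-5p none was called with 27 or 25.

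Leaving out miR-122-5p, by which the 27 libraries were kept, no member of 12 lists of cell type markers was called in them in either comparison. Nor was any of the 587 miRNAs (0%), while single libraries stood far above their arm. Muscle and heart markers summed to 382, 1929 and 15432 CPM (lowest, median and highest) in FL, 856, 4256 and 9725 CPM in HGC and 258, 3533 and 27867 CPM in VGC. All 7 of them had a fold change below 0 in both comparisons, with medians of -0.22 and -0.61. When counts were scaled to the total over 7 classes in place of the trimmed mean of M-values, 5 of the 7 lay above 0 against HGC. VGC 1 alone held 27867 CPM. That scaling moved the median of all 587 miRNAs to 0.34 against HGC and 0.32 against VGC. The 9 hepatocyte markers, miR-122-5p among them, moved to medians of 0.39 and 0.37, close to the shift of all miRNAs. It called 0 miRNAs in both. Brain markers had medians of 2.03 and 2.32 with FL 1 and FL 16, all 7 above 0, and -0.48 and -0.04 without them. Pancreas markers reached 644 CPM in HGC 14 and 1137 CPM in VGC 16, with a median of 38.7 CPM in FL. MiR-217-5p, an acinar cell miRNA, was at 72.9 and 128 CPM there, and at most 16.6 CPM in FL. Red blood cell markers, led by miR-451a, summed to 20693, 28095 and 79936 CPM in FL, 20557, 32048 and 60934 CPM in HGC and 25438, 38858 and 69318 CPM in VGC. White blood cell markers had medians of 1697, 2035 and 2672 CPM, those of endothelium 11727, 11526 and 10869 CPM and those of fibroblasts and stellate cells 19787, 23816 and 21859.7 CPM, in the same order. For thymus markers they were 3057, 2953 and 3589 CPM, for epithelium 1062, 1056 and 1276 CPM, for ciliated epithelium 14.3, 17.6 and 18.4 CPM and for kidney 496, 434 and 364 CPM.

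The direction of the imprinted Dlk1-Dio3 miRNAs, known from placenta, brain and muscle and low in adult liver, turned with FL 1 and FL 16. With the 27 libraries all 8 tested members were higher in FL than in HGC, with a median log2 fold change of 0.46, and none was called. Without FL 1 and FL 16 all 7 tested were lower, with a median of -0.37, and again none was called. With the 7-class scaling 6 of those 7 were lower. Their summed level in the 25 libraries was 82.2, 119 and 212 CPM in FL, 110.3, 196 and 381 CPM in HGC and 101, 220.5 and 289 CPM in VGC, so the FL median was the lowest and the arms overlapped. MiR-127-3p, the most abundant, ranged from 30.9 to 74.9 CPM in FL and from 41.6 to 188 CPM in HGC (log2 fold change -0.59 ± 0.24, adjusted p = 0.963). In FL 1 it was at 1203 CPM. The 5 miRNAs of the miR-154 family lie in the same region. Their median was 1.27 against HGC with 27 libraries and -0.54 with 25.

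Of the other classes, only snoRNAs were called in number with all 29 libraries, and none of the calls was left without FL 1, FL 16, HGC 11 and VGC 14. These RNAs guide chemical marks on ribosomal and spliceosomal RNA, and mammals have large families of near-identical copies. Against HGC 180 of 632 snoRNAs were called (28.5%), all higher in FL. Against VGC 198 were called (31.3%), 189 higher and 9 lower. Many rows repeat the same counts, so the 180 held 62 distinct rows and the 198 held 76. Of the 180, 164 carry numbered Gm names. For all 180, and for 188 of the 189, the highest library was FL 1 or FL 16. Lower against VGC were 9 with 29 libraries and 3 with 27. Over the 62 distinct rows, FL 1 held 57.7% and FL 16 37.1% of the counts of the 10 FL libraries. Summed, they were at 21409 CPM of snoRNA counts in FL 1 and 7525 CPM in FL 16, and between 63.4 and 971 CPM in the other 27 libraries (median 219.8). Gm26499, with the smallest p among those with a mean of 10 CPM or more, was at 568 CPM in FL 1 and 191 in FL 16, and between 0.661 and 20.5 CPM in the others. Its log2 fold change against HGC was 3.23 ± 0.84 (adjusted p = 0.0104) and -0.000744 ± 0.31 without both libraries. Of the 180, the median log2 fold change went from 3.16 to -0.23 without FL 1, FL 16, HGC 11 and VGC 14. In those 25 libraries edgeR called 0 of 618 in both comparisons, with 50 and 7 at an unadjusted p under 0.05, and DESeq2 also called 0. In the 27 libraries edgeR called 180 against HGC and 189 against VGC, and DESeq2 0 and 1. Among lncRNAs with a mean of 10 CPM or more, the one of smallest p in both comparisons, Mir124a-1hg, the host transcript of a miR-124 hairpin, followed the same 2 libraries. It was at 11206 CPM of lncRNA counts in FL 1, 2192 CPM in FL 16 and 9.15 to 285 CPM in the others, and it was not called (adjusted p = 0.299 against HGC). Over all lncRNAs the smallest adjusted p was 0.139 against HGC. Whether brain RNA in these libraries gave the snoRNA calls was not tested.

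**Figure D3:**
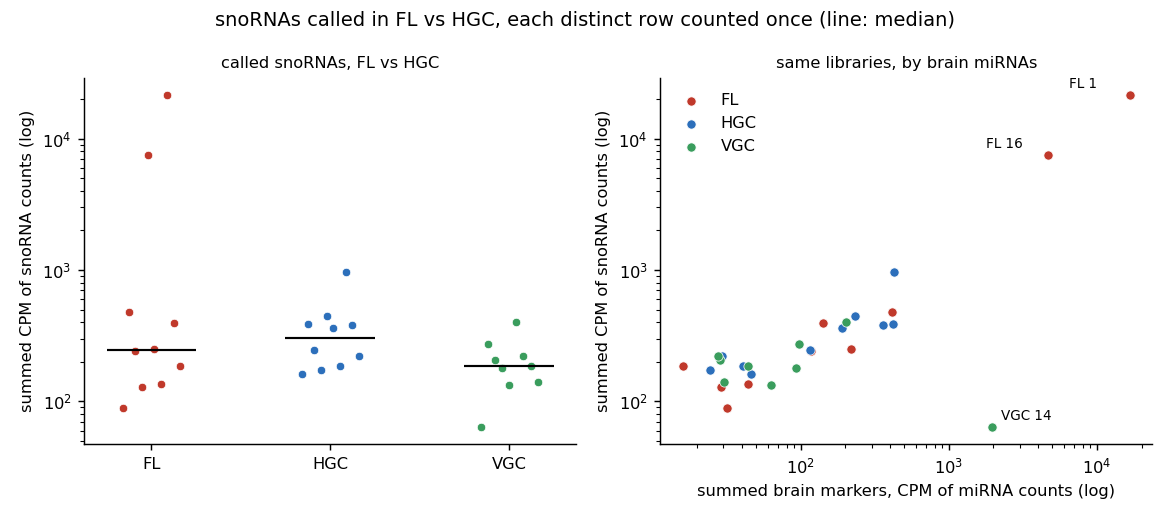
Left, summed CPM of snoRNA counts (log axis) over the 62 distinct rows called in FL vs HGC, 1 point per library by arm, with the median as a line. Right, the same sums against the summed CPM of 7 brain miRNAs (log axes). FL 1 and FL 16 lie highest on both axes, and VGC 14 lies at 1947 CPM of brain markers with the lowest snoRNA sum.

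In tRNA, rRNA, snRNA, piRNA and lncRNA edgeR called 0 features in both comparisons, with 29 and with 27 libraries. At an unadjusted p under 0.05 there were 13 of 401 tRNAs against HGC and 30 against VGC with 29 libraries, 4 and 4 of 177 rRNAs, 41 and 19 of 711 snRNAs, 24 and 31 of 543 piRNAs and 106 and 107 of 2680 lncRNAs. DESeq2 called 1 lncRNA against HGC with 29 libraries, 15 piRNAs against HGC with 27, and 0 elsewhere. The closest to a call was oocyte_piRNA1479, an entry of the piRNA table named as an oocyte piRNA. Its lowest, median and highest levels were in FL 25042, 40198 and 63336 CPM of piRNA counts, in HGC 8811, 19648 and 30654 CPM of piRNA counts and in VGC 11388, 31410.3 and 62642 CPM of piRNA counts. The lowest FL library lay above 8 of the 10 HGC libraries, while FL and VGC overlapped. The log2 fold change against HGC was 1.17 ± 0.27 (adjusted p = 0.0642), with 27 libraries 1.12 ± 0.26 (adjusted p = 0.0602) and with 25 1.27 ± 0.28, which was a call (adjusted p = 0.0311). Against VGC it was 0.79 ± 0.27 with 27 libraries (adjusted p = 0.451). DESeq2 called 0 piRNAs with 25 libraries. The second piRNA called in the 25 libraries, oocyte_piRNA3073, reached 922 CPM in FL 11 and at most 37.4 CPM in the other FL libraries (2 of 523 called, 0.382%). Among features with a mean of 10 CPM or more, the smallest p for tRNA with 29 libraries belonged to tRNA-Arg-TCG-2-1 against HGC (0.63 ± 0.22, adjusted p = 0.984) and tRNA-Ala-CGC-5-1 against VGC (0.87 ± 0.33, adjusted p = 0.468, while the smallest over all tRNAs was 0.357). A tRNA that carries cysteine, tRNA-Cys-GCA-2-1, was at 560.4 to 859 CPM in the 8 FL libraries without FL 1 and FL 16 and at 771 to 3090.4 CPM in 8 VGC libraries (-0.80 ± 0.27, adjusted p = 0.272), but at 4042 CPM in FL 1. With the same limit, the smallest p for rRNA belonged to the 5S copies n-R5s211 against HGC (0.65 ± 0.29) and n-R5s109 against VGC (0.43 ± 0.21), and for snRNA to Gm26454 (-0.43 ± 0.16) and Gm23622 (-0.64 ± 0.26).

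The share that each class took of the counts did not pass an adjusted threshold in any of the 14 tests (two-sided permutation tests, 100000 resamples for 10 against 10 and exact otherwise, adjusted over the 14). The miRNA share was 8.71% ± 1.56 (SD, n = 10) in FL, 7.65% ± 3.25 (n = 10) in HGC and 6.49% ± 3.34 (n = 9) in VGC. No FL library was under 6.45%, while the lowest of HGC was at 2.52% and that of VGC at 3.03%. The permutation tests gave an adjusted p of 0.841 against HGC and 0.54 against VGC. The smallest p was that of the piRNA share against VGC, 2.58% ± 0.352 in FL and 2.09% ± 0.319 in VGC (exact permutation test, p = 0.00569, adjusted p = 0.0797, and 0.168 with 27 libraries). The largest share went to tRNA, with 35.1% ± 10.0 in FL, 36.9% ± 11.7 in HGC and 39.4% ± 11.1 in VGC. In the snoRNA class and others, rows of near-identical copies repeat the same counts, so these are shares of counts on features and not of reads.

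**Figure D4:**
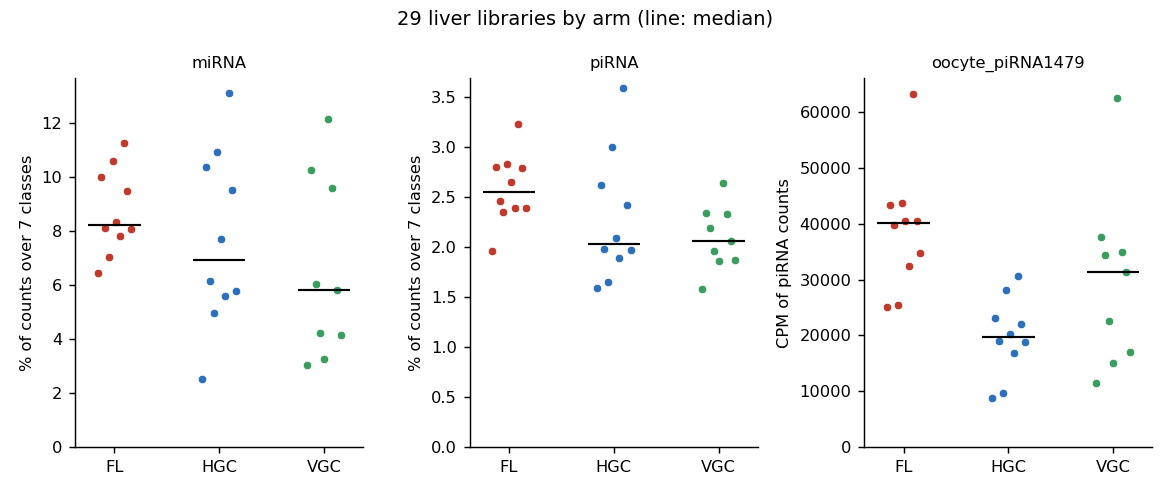
MiRNA and piRNA counts as a percent of counts over 7 classes, and the CPM of oocyte_piRNA1479 within piRNA counts, in the 29 libraries by arm, 1 point per library with the median as a line. The FL libraries lie in a narrower band of miRNA share, 6.45% to 11.3%, than HGC or VGC, and in oocyte_piRNA1479 they lie mostly above HGC.

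Between the ages, miR-379-5p of the imprinted Dlk1-Dio3 region was called with 29, 27 and 25 libraries under the trimmed mean of M-values, but not under every scaling. In a fit with arm and age, 1 of 625 miRNAs was called with 29 libraries (0.16%), 2 of 587 with 27 (0.341%) and 9 of 576 with 25 (1.56%). Its lowest, median and highest levels in the 25 libraries were 27.0, 48.4 and 64.0 CPM in 14 mice of 3 months, and 16.7, 22.14 and 30.6 CPM in 11 mice of 8 months. The ages overlapped only between 27.0 and 30.6 CPM. At 8 months against 3, its log2 fold change was -0.92 ± 0.19 with 29 libraries (adjusted p = 0.0307), -1.02 ± 0.16 with 27 (adjusted p = 5.67e-04) and -0.93 ± 0.13 with 25 (adjusted p = 8.56e-05). With RLE size factors it was -0.88 with 29 libraries and not called (adjusted p = 0.0752), but called with 27 and 25. With counts scaled to the total over 7 classes it was -0.56 with 29 libraries (adjusted p = 0.426), -0.89 with 27 (adjusted p = 0.287) and -0.80 with 25 (adjusted p = 0.276), and it was called in none of them. Its neighbours lay on the same side. With 25 libraries all 7 tested members of the region's list were lower at 8 months, 1 of them called, with a median of -0.60, beside 0.06 over all 576 miRNAs. MiR-411-5p had -0.60 ± 0.17 (adjusted p = 0.0653), miR-127-3p -0.59 ± 0.17 (0.0786), miR-541-5p -0.82 ± 0.27 (0.111) and miR-154-5p -0.80 ± 0.24 (0.0916), none of these 4 called. With the 7-class scaling 6 of the 7 were lower, and no miRNA was called. Beside them, all 6 tested muscle and heart markers were lower at 8 months in the same 25 libraries, with a median of -1.38, and all 4 pancreas markers were higher, with a median of 2.41, none of them called. Their part in the result was not tested. The other calls with 25 libraries were chosen after their values were seen, and each had a mean under 10 CPM in those libraries. For miR-381-3p the medians were 2.14 CPM at 3 months and 0.370 CPM at 8 months, where a count of 0 allows up to 0.449 to 2.08 CPM. MiR-381-3p, of the miR-154 family, was lower at 8 months (-1.84 ± 0.47), as were miR-134-5p, miR-376b-3p and miR-377-3p (-1.18, -1.17 and -1.29), which belong to the same region. MiR-184-3p, miR-592-5p, miR-871-5p and miR-880-3p were higher by 1.03, 1.31, 1.76 and 1.71. The livers of the live return give separate mice of the same age groups. Per the study's methods, these mice were collected later after launch than those of TERM, and their livers were taken without an earlier freeze of the carcass. In the 24 LAR libraries with miR-122-5p at 10% or more of miRNA counts, miR-379-5p had a log2 fold change of -0.65 ± 0.18 (edgeR, unadjusted p = 0.00145, adjusted p = 0.128). Its levels were 22.6 to 48.4 CPM at 3 months and 15.7 to 57.9 CPM at 8 months, so the ages overlapped widely. FL 1 and FL 16 of LAR, with miR-127-3p at 891 and 809 CPM, were among the 24. All 8 tested members of the list were lower with a median of -0.55 (6 of 8 with RLE size factors). With all 29 LAR libraries 5 of 8 were lower, with a median of -0.22. With the 24, edgeR called 0 of 614 miRNAs (69 at an unadjusted p under 0.05, 7 by DESeq2).

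**Figure D5:**
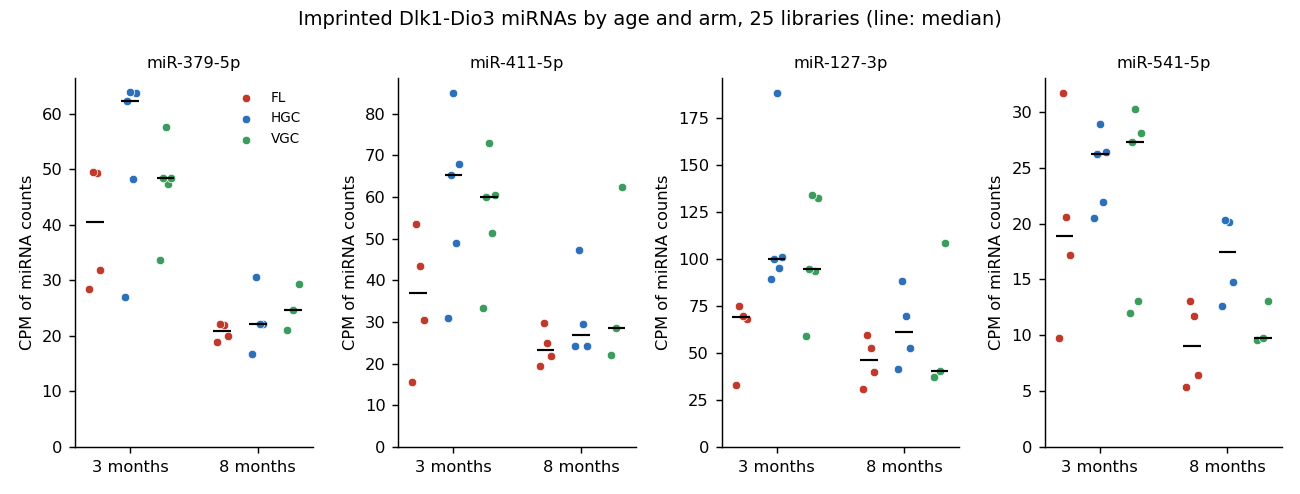
CPM of 4 miRNAs of the imprinted Dlk1-Dio3 region in 25 liver libraries, 1 point per mouse, by age and arm, with the median as a line. The medians at 8 months lie lower in all 4 panels, and for miR-379-5p the libraries at 8 months lie between 16.7 and 30.6 CPM in all arms.

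Whether flight acted differently at the 2 ages was asked with the interaction of age and flight (FL vs HGC at 8 months minus that at 3 months). EdgeR called 0 of 625 miRNAs with 29 libraries (56 at an unadjusted p under 0.05) and DESeq2 called 6. The smallest p belonged to heart and muscle miRNAs, such as miR-499-5p (-8.16 ± 1.91, adjusted p = 0.0895) and miR-133a-5p (-6.92 ± 1.79), with HGC 11, a mouse of 8 months, among the libraries. MiR-133a-3p, miR-1a-3p and the kidney marker miR-204-5p had -6.17, -6.44 and -5.97. With 27 libraries the smallest adjusted p was 0.508, and both tools called 0. With 25 libraries edgeR called 0 of 576 (40 at an unadjusted p under 0.05), with the smallest adjusted p for miR-133a-5p (-6.58 ± 1.57, adjusted p = 0.179), and DESeq2 called 2.

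The same contrast can be set beside the livers of the live return. Of their 29 libraries, 5 had miR-122-5p at 0.161% of miRNA counts or less and their highest r with another tissue, among them FL 2 and FL 4 of LAR with pancreas (r of 0.80 and 0.91, and 0.03 and 0.15 with liver). FL vs HGC in TERM minus FL vs HGC in LAR gave 7 calls of 596 miRNAs over 58 libraries (1.17%), all with a lower value of the contrast in TERM than in LAR. They were led by the pancreas miRNAs miR-375-3p (-8.67 ± 1.75, adjusted p = 0.00435), miR-217-5p (-10.01 ± 2.19), miR-216b-5p (-9.09 ± 2.08) and miR-216a-5p (-8.65 ± 2.06), followed by the epithelial miR-200c-3p (-4.49 ± 1.08). In FL of TERM miR-375-3p ran from 16.2 to 106 CPM, while in FL of LAR its median was 16.6 CPM and FL 4 and FL 2 held 90368 and 40496 CPM. With the 51 libraries in which miR-122-5p was at least 10% of miRNA counts, edgeR called 0 of 565 (31 at an unadjusted p under 0.05) and so did DESeq2. With all 58, DESeq2 called 1. Without FL 1 and FL 16 of TERM, edgeR called 8 of 560 (1.43%). They were led by the brain miRNA miR-9-5p (-5.34 ± 1.19, adjusted p = 0.0116), miR-127-3p (-2.56 ± 0.59) and miR-138-5p (-3.47 ± 0.81). MiR-138-5p does not single out brain in this series, since it was at 550 CPM in HGC 12 of LAR, whose highest r was with spleen. DESeq2 called 17. That fit left out brain-rich libraries of TERM but none of LAR. In FL of LAR miR-9-5p was at 1615 CPM in FL 16, 577 CPM in FL 1 and 310.1 CPM in FL 13, and in the HGC libraries of LAR in that fit it was at most 18.8 CPM. The 8 calls were not tested without those libraries.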

How the data were processed

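Small RNA of liver was sequenced in 29 TERM libraries, each from a mouse of its own, with 29 LAR liver libraries for comparison. The MGIEasy kit was used, and no molecular identifiers are described. Per the study's methods, the authors mapped reads to GRCm39 and miRBase 22.1 with miRMaster 2.0. The authors deposited estimated counts per mature miRNA, of which 0.739% were fractional and which were rounded here, and read counts per feature for tRNA, rRNA, snRNA, snoRNA, piRNA and lncRNA. How reads that match several features were counted is not given in the sources used here. Columns of other tissues served only to set tissue profiles of miRNAs, and 628 sample columns in each of the 6 other classes were not used. Circular RNA and scaRNA were not used here.

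Per class, features with at least 5 counts in 10% of the libraries of each arm were fitted over the 3 arms with edgeR 4.0.16 (trimmed mean of M-values, quasi-likelihood test, Benjamini-Hochberg, adjusted p under 0.05). The standard error is the fold change divided by the root of the test's F value, and intervals are 95%. Alternatives were DESeq2 1.42.0, other scalings and filters, covariates, a replicate block, single libraries left out, and sets of 27 and 25 libraries, the last chosen after the data were seen. Age was added to the arms for the fit between ages. Shares were compared by permutation of libraries (scipy 1.17.1). Libraries of different mice give the spread, while cage and plate are shared by some. The plate used here is a block of consecutive library numbers, and the sample titles do not name it. Members and lists were chosen with earlier results of these data known. Named miRNAs are list members, the 10 called with smallest adjusted p at a mean of 10 CPM or more (the first 5 by p where fewer than 5 were called), the 10 most abundant, and the first 5 by p of each other class and fit. Script steps were tested on simulated data. Sequences come from RefSeq (GRCm38.p6), and coordinates are of that build. No 2 libraries held identical values.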

Additional observations from a re-analysis of the deposited data

Results flagged for a closer look

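Among 20 of 63 values of a library within its arm, the highest or lowest stood apart by a gap test at the 95% level, which flags about 1 in 20 groups by chance. Most fall on 4 libraries.

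HGC 11 stood apart in its miR-122-5p share (0.0265% of miRNA counts) and in summed CPM of hepatocyte (1415), skeletal muscle and heart (258400), white blood cell (5547) and kidney markers (1745). VGC 14 stood apart in its total of 110.7 M counts and in summed CPM of hepatocyte (1642), brain (1947), white blood cell (29330), thymus (386900), bile duct and other epithelium (6388) and ciliated epithelium markers (1118). FL 1 stood apart in brain (16740) and kidney markers (1736), and FL 16 in red blood cell (79940) and thymus markers (11340). HGC 14 stood apart in pancreas (643.8) and ciliated epithelium markers (54.17), VGC 16 in pancreas markers (1137) and VGC 1 in skeletal muscle and heart markers (27870).

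The contrast of FL with HGC differed between TERM and LAR by a test of the difference itself (edgeR). It called 7 miRNAs, of which the first 5 by p had log2 differences of -8.672 for miR-375-3p, -10.01 for miR-217-5p, -9.088 for miR-216b-5p, -8.646 for miR-216a-5p and -4.492 for miR-200c-3p. FL 2 and FL 4 of LAR, with miR-122-5p at 0.0864% and 0.161% of miRNA counts and their highest r with pancreas, held 40496 and 90368 CPM of miR-375-3p, against at most 29.6 CPM in the other FL libraries of LAR. In the 51 libraries with miR-122-5p at 10% or more of miRNA counts the test called 0.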

How the results depend on the processing

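With the 27 libraries, miRNA calls were 0, 0 and 0 for FL against HGC, FL against VGC and HGC against VGC, 2 between the ages and 0 in TERM minus LAR. With 25 they were 0, 0 and 0 between the arms and 9 between the ages, and there were 0 and 0 snoRNA calls and 2 piRNA calls in FL vs HGC. DESeq2 with 29 libraries called 0, 4 and 0 miRNAs between the arms, 9 between the ages, 6 in the interaction and 1 in TERM minus LAR, 0 and 1 snoRNAs, and 1 lncRNA in FL vs HGC. In FL vs HGC the miRNA calls were 3 with no filter, 3 with a filter in any arm and 2 with the 7-class library size. They were 0 with age and 0 with the plate as a covariate, 0 by the rank-sum test and 4 by the effect size rule. In FL vs VGC they were 0 with the 7-class library size, 7 with age, 0 with the plate, 0 by the rank-sum test and 9 by the effect size rule. With no filter, piRNA calls were 4 and 3 and lncRNA calls 2 and 2, against HGC and VGC. The difference in snRNA share, FL minus VGC, was -0.521 percentage points with 29 libraries, 0.894 with 27 and 0.0853 with 25. Except where the libraries left out show it, the cause was not tested.

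Leaving out each library in turn gave 0 to 2 miRNA calls in FL vs HGC (0 without HGC 11 or FL 16, 2 without HGC 1 or HGC 12) and 0 to 54 in FL vs VGC (0 without VGC 14, 54 without HGC 11). Without FL 1, 2, 3, 4, 5, 11, 12 or 14 or HGC 12 the latter were 23 to 29. HGC against VGC gave 0 to 33 (0 without VGC 14 or any HGC library but HGC 3 and HGC 14, 13 without HGC 3, 32 and 33 without VGC 5 and VGC 16), and the interaction gave 0 to 10 (10 without FL 16, 4 without HGC 12, 1 without HGC 13 or HGC 16). SnoRNA calls ranged over 0 to 183 in FL vs HGC (0 without FL 1, 117 without HGC 4 or HGC 16) and 119 to 213 in FL vs VGC (119 without FL 1). Calls of tRNA in FL vs VGC ranged over 0 to 7 (7 without FL 1), of lncRNA in FL vs HGC over 0 to 2 (2 without FL 1) and of piRNA in FL vs HGC over 0 to 1 (1 without HGC 1, FL 1, VGC 12 or VGC 14). The other comparisons of rRNA, snRNA, tRNA, piRNA and lncRNA stayed at 0.

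Mouse numbers shared by the arms belong to different animals. Over 484 miRNAs, 5 of 24 pairs of same-numbered libraries had deviations from their arm that correlated above 0.1 (range -0.42 to 0.28), so the numbers do not pair the libraries. With the replicate block, miRNA calls were 0, 0 and 0 in the same order of arms, and snoRNA calls were 0 and 0.

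Single miRNAs that changed sign, none of them called there, had these log2 fold changes. With 27 libraries they were in FL vs HGC miR-149-5p 0.022, miR-22-3p -0.046, let-7f-5p -0.066 and miR-378a-3p 0.20, and in FL vs VGC miR-149-5p 0.17 and miR-20b-5p 0.15. With 25 libraries they were in FL vs HGC miR-9-3p -0.65, miR-9-5p -0.75, let-7a-5p 0.024, let-7c-5p 0.11, let-7g-5p 0.028 and miR-378a-3p 0.097, and in FL vs VGC miR-149-5p 0.067, miR-9-3p -0.20 and miR-378a-3p -7.6e-05. With the 7-class library size they were in FL vs HGC miR-106a-5p 0.68, miR-130b-3p 0.018, miR-466a-3p 0.19, miR-466e-3p 0.19, miR-466c-3p 0.19, miR-466p-3p 0.19, miR-466b-3p 0.18, miR-449a-5p 0.030, miR-20b-5p 0.69, let-7a-5p 0.0024 and let-7g-5p 0.20, and in FL vs VGC miR-149-5p 0.040, miR-486a-3p 0.13, miR-451a 0.27 and miR-22-3p 0.43.

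On simulated data with the depth of these libraries, the fit found 64.9% of 2-fold and 95.2% of 4-fold changes of miRNAs in FL vs HGC with 27 libraries (555 miRNAs), and 48.0% and 85.7% with 29 (593 miRNAs). For lncRNAs it found 25.3% and 78.3% with 27 libraries (2490 lncRNAs), and 23.1% and 81.6% with 29 (2517 lncRNAs). Changes of 2-fold or less, and some of 4-fold, could thus be missed. These simulations changed many features at once, with 27 libraries 97 miRNAs by 2-fold and 83 by 4-fold. Fewer changed features make the adjusted threshold harder to pass, and that case was not simulated.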
